A study of Mus musculus with 4 samples.

Results

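The group of elastic fibre and microfibril genes held 10 members: the fibulins Fbln1, Fbln2, Fbln5 and Efemp2, the fibrillins Fbn1 and Fbn2, elastin (Eln), Emilin1, and the microfibril-associated glycoproteins Mfap2 and Mfap5. They were picked by gene symbol, and all 10 were found in the deposited table of 55401 genes, each on 1 row. RNA-seq was performed on E14 mouse embryonic stem cells (mESCs), an established line, grown in serum medium with Lif and the 2i pair of kinase inhibitors. WT cells gave 2 libraries, and Haspin-KO cells, in which the gene of the histone H3 kinase Haspin was cut by CRISPR/Cas9 with a pair of gRNAs, gave 2 libraries. No further treatment of either group is given. The knockout cells were transfected, selected and cloned, and no such steps are given for the WT cells. The knockout lines grew from single puromycin-resistant clones picked for loss of H3T3 phosphorylation, and how clones map to libraries is not given. It is also not given whether the libraries of a group were separate cultures, so that p values measure only the spread between these libraries, which may be technical.

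Elastic fibres have a core of cross-linked elastin on a scaffold of microfibrils, which are built from fibrillins and carry microfibril-associated glycoproteins, EMILINs and latent TGF-beta binding proteins. Fibulins bind tropoelastin, fibrillins and basement membrane proteins and help to assemble the fibre, and lysyl oxidases cross-link elastin and collagen. These proteins are made mainly by mesenchymal cells such as fibroblasts and smooth muscle cells, while some fibulins also belong to basement membranes. The study compared Haspin-KO with WT mESCs to look for factors downstream of Haspin, and here the comparison asks which of the 10 genes differed between them.

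The libraries held between 14207828 and 21834847 counted reads. Levels are given as counts scaled to library size (CPM) on library sizes normalized by TMM, and a gene with at most 3 counts in a library was taken as at the floor, a limit that covers counting error only. Haspin was at 10.4 and 14.6 CPM in the Haspin-KO libraries and at 40.1 and 35.7 CPM in the WT libraries. Of 10 mESC markers, which included Pou5f1, Nanog, Sox2 and Esrrb, edgeR called 0 changed, and DESeq2 with the same rule called 0 as well. At an unadjusted p under 0.05 from edgeR, 3 were lower and 0 higher, where 10.4% of all tested genes passed in each direction. A gene was called when its adjusted p was under 0.05 (edgeR's quasi-likelihood test, Benjamini-Hochberg over all 15580 genes tested) and its fold change was over 2.

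Fbln2 was the only member called. Its mean level in Haspin-KO cells was 3.05% of that in WT cells, while the other 7 members tested had between 56.2% and 121.9% of their WT level. Eln and Mfap2 had too few reads to be tested. So 1 of 8 tested members was called lower and 0 were called higher by edgeR, where 0.501% of all tested genes were called lower and 0.327% were called higher. With the adjusted p alone and no fold limit, again 1 of the 8 was lower, against 1.51% of all genes tested. At an unadjusted p under 0.05, 4 of the 8 were lower and 0 were higher, where 10.4% of all genes tested passed in each direction. The median log2 fold change was -0.38 over the 8 members and -0.0039 over all genes tested.

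Fbln2 encodes fibulin-2, a secreted glycoprotein that binds fibrillin-1, fibronectin and basement membrane proteins. The gene (ENSMUSG00000064080) lies on the plus strand of chromosome 6 of mm10, from 91212455 to 91272540, with 6370 exonic bases, and it overlaps no other gene of the table. The promoter of Fbln2 is shown because this gene was called, beside that of Fbln1, the member with the highest level, which was not. Each sequence runs 5′ to 3′ from 250 bases before to 50 bases after a RefSeq start (GRCm38.p6), at chr6:91212514-91212813 for Fbln2 and at chr15:85205699-85205998 for Fbln1, both on the plus strand, with the GC box GGGCGG on either strand in capitals.
Fbln2: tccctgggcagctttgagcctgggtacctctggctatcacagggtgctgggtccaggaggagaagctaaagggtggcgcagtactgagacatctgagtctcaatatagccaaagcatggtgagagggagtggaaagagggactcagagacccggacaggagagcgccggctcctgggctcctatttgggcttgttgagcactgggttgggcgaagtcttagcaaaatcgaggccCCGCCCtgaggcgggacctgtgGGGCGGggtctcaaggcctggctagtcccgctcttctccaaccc
Fbln1: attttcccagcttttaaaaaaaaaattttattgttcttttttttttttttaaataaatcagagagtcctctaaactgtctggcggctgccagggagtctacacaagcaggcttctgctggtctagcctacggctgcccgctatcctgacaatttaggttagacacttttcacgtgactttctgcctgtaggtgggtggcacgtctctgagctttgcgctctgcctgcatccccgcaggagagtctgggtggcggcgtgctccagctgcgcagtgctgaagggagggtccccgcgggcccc
The Fbln2 window held 2 GC boxes and this Fbln1 window held 0, whereas the window of another RefSeq start of Fbln1 (chr15:85205758-85206057) held 2. Fbln5, Efemp2 and Fbn1, which were not called, and Mfap2, which was not tested, also had a window with a GC box, while that of Emilin1 held 0. Of all 32851 RefSeq promoter windows of this length, 35.7% held a GC box. The TATA box TATAAA, found in 13.6% of all windows, and the AP-1 site TGANTCA, found in 7.81%, were searched on both strands too, and neither occurred in the 12 windows of the 7 members matched. Fbn2, Eln and Mfap5 had no entry. The matches describe these letters and windows only.

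In the WT libraries Fbln2 had 37.0 and 24.7 CPM, and in the Haspin-KO libraries 1.32 and 0.560 CPM. Both Haspin-KO libraries lay far below both WT libraries, and the groups did not overlap. These levels rest on 808 and 429 reads in WT and on 19 and 8 reads in Haspin-KO cells, so that both knockout libraries were above the floor. The mean was 30.9 ± 8.65 CPM in WT and 0.942 ± 0.539 CPM after the knockout (SD, with n = 2 in each group). The log2 fold change of Fbln2 was -5.03 (95% interval -5.75 to -4.31, adjusted p = 9.5e-05 from edgeR), which corresponds to a ratio of the mean levels of 32.8. From the pooled reads alone the ratio was 33.5, with an exact counting interval from 22.9 to 51.0. Without Haspin-KO replicate 1, the library with more Fbln2 reads of that group, the log2 fold change was -5.77, and with each of the other libraries left out it was between -5.28 and -4.55.

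Fbln2 thereby made up 23.7% and 20.4% of all reads on the 10 members in WT, and 1.37% and 0.627% in Haspin-KO cells. The summed level of the members was 156.3 and 121.2 CPM in WT and 96.9 and 89.3 CPM in Haspin-KO cells. Without Fbln2 the sums were 119.3 and 96.5 CPM in WT and 95.5 and 88.7 CPM in Haspin-KO cells, which left a small gap between the lower WT library and the higher Haspin-KO library.

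**Figure D1:**
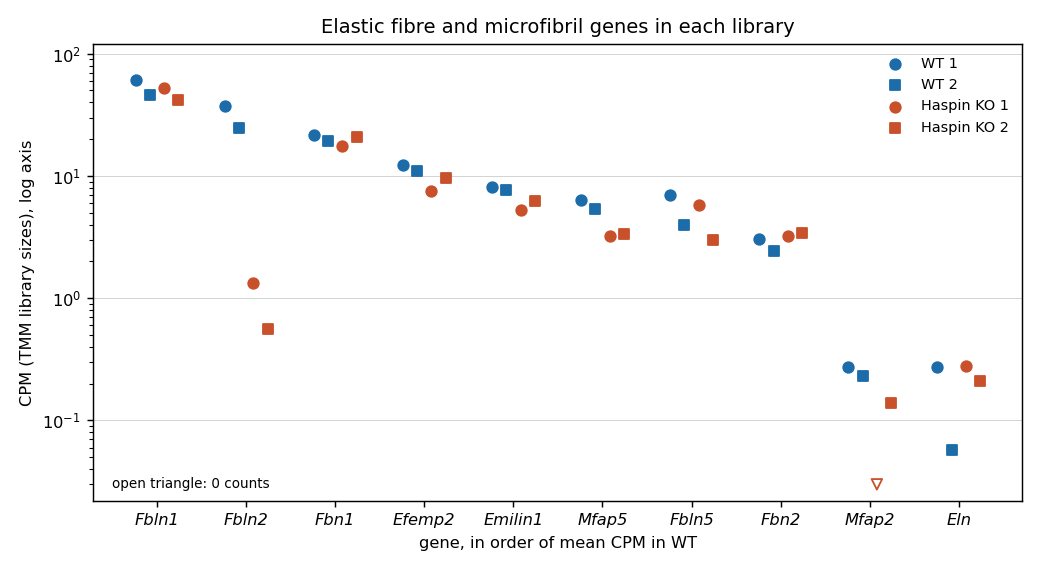
CPM of each of the 10 genes in the 4 libraries on a log axis, with circles for replicate 1, squares for replicate 2, blue for WT and orange for Haspin-KO; the open triangle is Mfap2 with 0 counts in Haspin-KO replicate 1. Fbln2 stands apart, with 37.0 and 24.7 CPM in WT and 1.32 and 0.560 CPM in Haspin-KO cells, whereas the Fbln1 libraries of both groups lie between 42.0 and 60.6 CPM.

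For passage the mESCs were kept on mouse embryonic fibroblasts treated with mitomycin C, and for assays on gelatin, and the sources do not say which held for the RNA-seq cultures. Markers of fibroblasts moved with Fbln2. Of 15 fibroblast markers, 10 were tested by edgeR. It called 6 lower (Col1a1, Col1a2, Col3a1, Col6a3, Postn and Prrx1) and 0 higher, where 0.501% and 0.327% of all tested genes were called. At an unadjusted p under 0.05, 7 were lower and 0 higher, where 10.4% of all tested genes passed in each direction. DESeq2 called 4 lower and 0 higher and gave no adjusted p for Col6a3 and Prrx1. Without either WT library Col6a3 and Prrx1 were not called by edgeR. The median log2 fold change of the 10 tested markers was -4.58. The summed level of the 15 was 120.1 and 92.4 CPM in WT and 19.1 and 15.0 CPM in Haspin-KO cells. Postn, S100a4, Twist2, Fap, Dpt and Lum had 0 reads in both Haspin-KO libraries. In WT, Postn had 171 and 77 reads and S100a4 had 22 and 9. Twist2 had 1 and 3, Fap 1 and 0, and Dpt 0 and 4 reads in WT, too few to show a fall. Lum had 0 reads in the WT libraries too. Pdgfrb, Twist1, Thy1 and Pdgfra were not called, with 55.6%, 88.7%, 69.9% and 123.0% of their WT level. In bulk RNA, fewer cells of a type and less RNA per cell cannot be told apart, and the part of these markers in the fall of Fbln2 was not tested. Of 6 primitive endoderm and 6 early germ layer markers, 4 and 6 were tested and 0 were called by edgeR, with 1 lower and 1 higher at an unadjusted p under 0.05, both early germ layer markers, and DESeq2 called 0 too.

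The other fibulins were not called. Fbln1 encodes fibulin-1, a fibronectin- and laminin-binding protein of basement membranes and elastic fibres, and lies on chromosome 15 from 85205949 to 85286535. It had 60.6 and 46.3 CPM in WT and 52.8 and 42.0 CPM in Haspin-KO cells, so the groups overlapped. Its log2 fold change was -0.18 (95% interval -0.50 to 0.15, adjusted p = 0.52 from edgeR), an interval that holds no fold of 2 in either direction. With 600 to 1324 reads per library, Fbln1 was the member with the most reads.

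Fbln5 encodes fibulin-5, which ties tropoelastin to microfibrils and to integrins, and lies on the minus strand of chromosome 12 from 101746565 to 101819055. Fbln5 was at 6.96 and 3.98 CPM in WT and at 5.78 and 3.01 CPM in Haspin-KO cells. In each group replicate 1 was the higher library, and the groups overlapped. With a log2 fold change of -0.33 (95% interval -1.10 to 0.45, adjusted p = 0.63 from edgeR), the interval includes a fall of 2-fold. The sign of the Fbln5 change turned when 1 library was left out, to 0.14 without WT replicate 1 and to 0.059 without Haspin-KO replicate 2. The log2 fold change of Fbln1 likewise became 0.029 without WT replicate 1.

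Efemp2 encodes fibulin-4, which brings lysyl oxidase to tropoelastin, and lies on the plus strand of chromosome 19 from 5473954 to 5482517. Its levels were 12.3 and 11.02 CPM in WT and 7.59 and 9.60 CPM in Haspin-KO cells. Both knockout libraries were lower than both WT libraries, by a small margin. The log2 fold change of Efemp2 was -0.44 (95% interval -0.83 to -0.052, adjusted p = 0.19 from edgeR), and Efemp2 was not called. It shares 173 exonic bases, 4.57% of its own, with Mus81 on the opposite strand, and as no strand setting of the counting is given, reads there cannot be told apart between both genes.

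Among the fibrillins, which polymerize into the microfibril itself, neither gene was called. Fbn1, on the minus strand of chromosome 2 from 125300594 to 125507993, had 21.5 and 19.4 CPM in WT and 17.4 and 20.7 CPM in Haspin-KO cells. The groups overlapped, and the log2 fold change was -0.10 (95% interval -0.41 to 0.20, adjusted p = 0.71 from edgeR). A fold change of 2 lies outside this interval on both sides. The sign turned to 0.020 without Haspin-KO replicate 1. Of the exonic bases of Fbn1, 20.1% also belong to Gm9913 on the opposite strand, a gene with 0 counts in every library.

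Fbn2, the fibrillin of the developing embryo, lies on the minus strand of chromosome 18 from 58008623 to 58210487. It was the only tested member with a higher mean in Haspin-KO cells, with 3.02 and 2.42 CPM in WT and 3.20 and 3.43 CPM in Haspin-KO cells. Both knockout libraries were above both WT libraries, which held for 25.3% of all tested genes. The log2 fold change of Fbn2 was 0.28 (95% interval -0.31 to 0.87, adjusted p = 0.58 from edgeR), and it was not called.

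Mfap5 encodes a microfibril-associated glycoprotein (MAGP-2) that binds fibrillins and lies on the plus strand of chromosome 6 from 122505845 to 122529290. Mfap5 had 6.32 and 5.36 CPM in WT and 3.20 and 3.36 CPM in Haspin-KO cells. The pairs of libraries were close within each group and did not overlap. Its log2 fold change of -0.83 (95% interval -1.33 to -0.34, adjusted p = 0.080 from edgeR) was the second most negative of the group but met neither part of the call rule. The mean level was 56.2% of that in WT.

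Emilin1 encodes an elastin-interface protein found between the elastin core and the microfibrils, and lies on chromosome 5 from 30913402 to 30921277. It was at 8.06 and 7.73 CPM in WT and at 5.29 and 6.23 CPM in Haspin-KO cells, again without overlap. The log2 fold change was -0.45 (95% interval -0.87 to -0.035, adjusted p = 0.21 from edgeR). In all, 4 of the 8 tested members (Fbln2, Efemp2, Emilin1 and Mfap5) had every knockout library under every WT library, against 26.9% of all tested genes. The interval of Fbln2, which ended at -4.31, did not reach that of any other tested member, the lowest of which began at -1.33 for Mfap5. The difference in response between members was not tested beyond these intervals.

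Eln and Mfap2 were near or at the floor throughout. Eln, the gene of tropoelastin, on chromosome 5 from 134702593 to 134747323, had 6 and 1 reads in WT and 4 and 3 reads in Haspin-KO cells. The ratio of WT to Haspin-KO was 0.731, with an exact counting interval from 0.219 to 2.44. The transcript of the core protein of the elastic fibre was thus barely detected in any library. Mfap2 (MAGP-1), on chromosome 4 from 141010418 to 141015984, had 6 and 4 reads in WT and 0 and 2 reads in Haspin-KO cells. Its ratio of WT to Haspin-KO was 3.65, with an exact counting interval from 0.779 to 34.3, so a difference was not detectable at this depth.

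**Figure D2:**
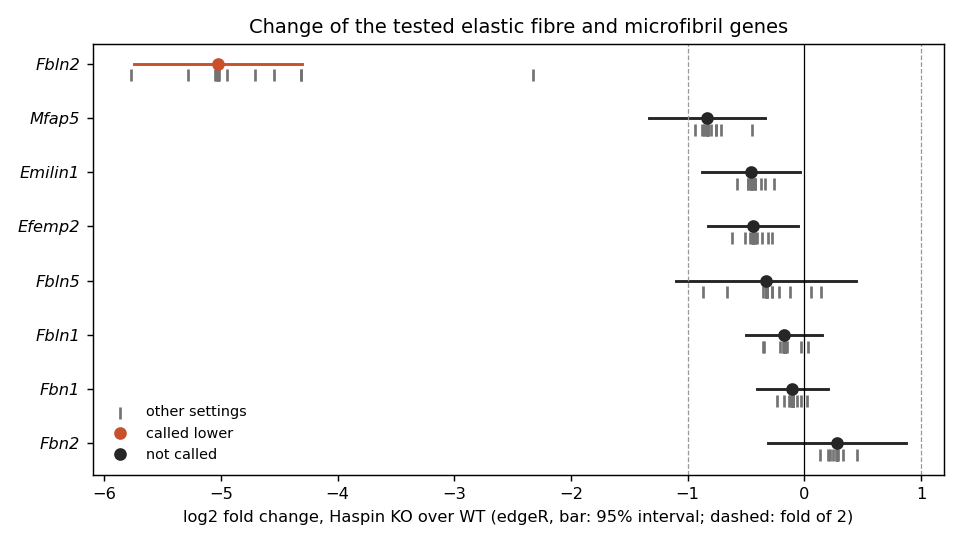
Log2 fold change of Haspin-KO over WT for the 8 tested genes from edgeR, with bars for the 95% interval, grey ticks for the values under other settings, and dashed lines at a fold of 2. Fbln2 lies at -5.03, and the other 7 genes lie between -0.83 (Mfap5) and 0.28 (Fbn2).

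Levels of different genes can be compared per length, on the deposited FPKM. In WT, Fbln1 was highest with 12.2 ± 2.37 FPKM, followed by Fbln2 with 4.84 ± 1.38 and Efemp2 with 3.07 ± 0.247 FPKM (SD, n = 2). Next came Fbn1, Mfap5 and Emilin1 with 1.68, 1.62 and 1.595 FPKM, whose libraries overlapped from each gene to the next, and then Fbln5 with 0.790 FPKM. Mfap2 and Fbn2, which overlapped at 0.210 and 0.205 FPKM, and Eln with 0.0200 FPKM were lowest. In Haspin-KO cells the order was Fbln1, Efemp2, Fbn1, Emilin1, Mfap5, Fbln5, Fbn2, Fbln2, Mfap2 and Eln, so Fbln2 went from the second to the eighth place, to 0.15 ± 0.0849 FPKM. There the libraries of Fbln2, Mfap2 and Eln overlapped from each gene to the next.

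The genes that make, modify or bind elastic fibres were compared in 8 lists of 44 genes, of which 36 were tested. edgeR called 6 of them lower and 1 higher, and 29 were not called, where 0.501% of all tested genes were called lower and 0.327% higher. DESeq2 called 4 of the 6 lower (Lox, Loxl2, Ltbp2 and Bgn) and gave no adjusted p for Loxl1 and Tgfb3. Without WT replicate 1, and likewise without WT replicate 2, the same 4 were called and Loxl1 and Tgfb3 were not, and without Haspin-KO replicate 2 Tgfb3 was not called. The median log2 fold change was -0.083. The calls were unevenly spread over the lists. Lysyl oxidases held 3 of the 6 lower genes, and Ltbp2, Bgn and Tgfb3 were the others. The 6 lower genes moved with the fibroblast markers given above, whose part in their fall was not tested.

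Of the 5 lysyl oxidases, which cross-link elastin and collagen, Lox, Loxl1 and Loxl2 fell. Lox had 1215 and 657 reads in WT and 0 in both Haspin-KO libraries, so it was at least 223-fold lower against a floor of 3 counts per library. Loxl2 had 10.8 and 7.38 CPM in WT and 0.139 and 0.420 CPM in Haspin-KO cells (log2 fold change -4.99, adjusted p = 0.000565 from edgeR). Loxl1, which is tied to elastic fibre upkeep, had 3.30 and 2.42 CPM in WT and 0.487 and 0.630 CPM in Haspin-KO cells (log2 fold change -2.35, adjusted p = 0.017 from edgeR). Loxl3 and Loxl4 were not called, with log2 fold changes of -0.73 and -0.48.

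The latent TGF-beta binding proteins are close relatives of the fibrillins. Ltbp2 was at 21.7 and 13.8 CPM in WT and at 2.02 and 1.19 CPM after the knockout (log2 fold change -3.47, adjusted p = 0.000675 from edgeR). Ltbp3 had a log2 fold change of -1.53 and did not pass the threshold (adjusted p = 0.051 from edgeR). With no filter, with at least 10 counts in every library, or with replicate number as a block, edgeR called Ltbp3 lower. Ltbp1 and Ltbp4 were not called, at 0.25 and -0.037. Ltbp4, with the highest CPM of the 4, was at 97.5% of its WT level.

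Of the 5 matrix partners of fibulins and fibrillins, Bgn, which encodes the small proteoglycan biglycan, fell from 28.4 and 18.0 CPM in WT to 1.25 and 1.54 CPM in Haspin-KO cells (log2 fold change -4.05, adjusted p = 0.000165 from edgeR). Vcan (versican) and Fn1 (fibronectin), the other 2 tested, were not called. Fn1 was at 1601 CPM in WT and at 1623 CPM in Haspin-KO cells as means of 2 libraries, and Vcan had a log2 fold change of 0.34 (adjusted p = 0.078 from edgeR). Dcn and Tnxb had too few reads for a test.

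Among the TGF-beta ligands, which microfibrils help to store, Tgfb3 fell, with 22 and 13 reads in WT and 1 and 0 reads in Haspin-KO cells. The ratio of WT to Haspin-KO for Tgfb3 was 25.6, with an exact counting interval from 4.30 to 1039 (adjusted p = 0.033 from edgeR). Tgfb1 and Tgfb2 were not called, at -0.33 and -0.29. The integrins held the 1 gene called higher, Itga8, which pairs with integrin beta 1 to bind matrix ligands. Itga8 had 1.19 and 1.33 CPM in WT and 4.67 and 3.57 CPM in Haspin-KO cells (log2 fold change 1.71, adjusted p = 0.022 from edgeR), and it was no longer called when either WT library was left out.

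In the remaining lists edgeR called 0 genes. They were the related fibulin, EMILIN and microfibril genes (7 tested of 9), the microfibril-associated ADAMTS and ADAMTSL genes (4 of 8) and the processing and folding partners (4 of 4). At an unadjusted p under 0.05 these lists held Mmrn2 on the higher side and Glb1 on the lower side, and DESeq2 with the same call rule called 0 of them as well. Mmrn2, a relative of the EMILINs, had an adjusted p of 0.026 (edgeR) with a log2 fold change of 0.54, below the fold limit. The fibulin relatives Efemp1 and Hmcn1 had log2 fold changes of 0.041 and -0.17.

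**Figure D3:**
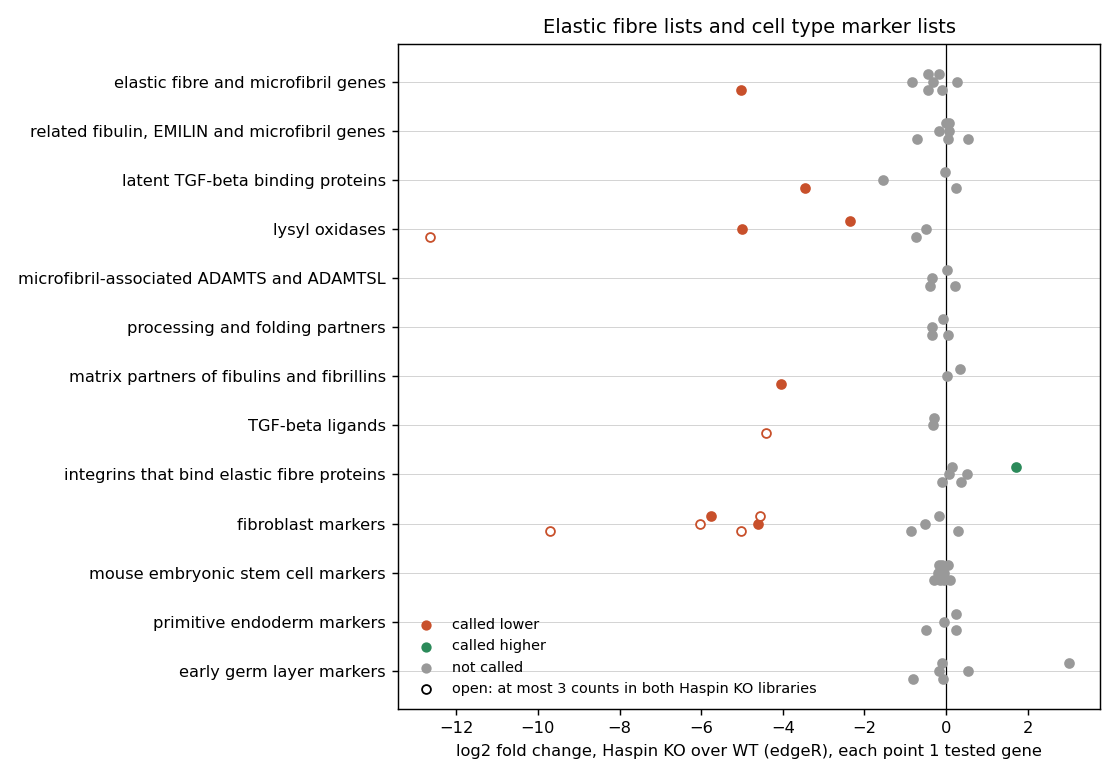
Log2 fold change of Haspin-KO over WT for each tested gene of the elastic fibre lists and of 4 cell type marker lists, coloured by call. Calls on the lower side sit in the lists of elastic fibre genes, latent TGF-beta binding proteins, lysyl oxidases, matrix partners, TGF-beta ligands and fibroblast markers; open points had at most 3 counts in both Haspin-KO libraries, so that their fitted position depends on the prior count.

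The deposited table also assigns Gene Ontology terms to genes. Calcium ion binding, a term of 6 members (Fbln1, Fbln2, Fbln5, Efemp2, Fbn1 and Fbn2), held 10 genes called lower among its 409 tested genes, of which Fbln2 was the only member. The term microfibril (Fbn1, Fbn2, Mfap2 and Mfap5 among its 10 genes) held 0 called genes among 7 tested by edgeR, with 1 lower at an unadjusted p under 0.05. Elastic fiber assembly held 1, Lox, among 5 tested, and elastic fiber held 0 among 1 tested. Basement membrane, a term of Fbln1 and Fbn1, held 8 called lower among 58 tested, with 16 lower at an unadjusted p under 0.05. Extracellular matrix structural constituent, a term of Fbn1 and Fbn2, held 5 called lower among 24 tested, with 6 at that unadjusted p. Extracellular matrix and integrin binding, terms of 0 members, held 5 called lower among 42 and 3 among 63 tested. Of all tested genes, 0.501% were called lower by edgeR, and 10.4% were lower at an unadjusted p under 0.05.

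The 5 genes outside the group whose levels ran closest to Fbln2 over the 4 libraries, by the Euclidean distance of log2 CPM centred on each gene's mean among 15572 genes, were Prelp, Ccdc80, Col3a1, Col8a1 and C1qtnf3, at distances from 0.587 to 0.806. All 5 encode secreted proteins, among them the connective tissue proteoglycan Prelp and the fibrillar collagen Col3a1. Ccdc80 had 409 and 220 reads in WT and 7 and 6 reads in Haspin-KO cells. Prelp had 79 and 47 reads in WT and 1 and 0 in Haspin-KO cells, while Col8a1 and C1qtnf3 had 0 reads in both Haspin-KO libraries. With 4 libraries, this order describes a shared fall and a shared excess of WT replicate 1 for Ccdc80, Prelp, Col8a1 and C1qtnf3, and Col3a1 was slightly lower in that library (6.96 and 7.61 CPM).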

How the data were processed

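The series holds RNA-seq of E14 mESCs, with 2 libraries of WT and 2 of Haspin-KO cells as labelled. The authors trimmed reads with Cutadapt (v1.9.1) and aligned these with HISAT2 (v2.0.1) to mm10. The submitters' processing notes also name HTSeq (0.6.1) and DESeq2, while strand setting and annotation release are not given in the sources used here. The authors deposited raw read counts per gene, and FPKM values that equal the counts scaled by exonic length and library total in 100% of values within 0.01. Of 55401 genes, 26731 had no count.

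From the deposited counts, edgeR (4.0.16) in R (4.3.3) was used with its filter on low counts, TMM and the quasi-likelihood test, with no covariate. Standard errors were the log2 fold change divided by the root of F, and 95% intervals used the t distribution. Alternatives were DESeq2 (1.42.0), limma (3.58.1) on log2(FPKM + 0.1) or log2(FPKM + 1) where 2 or more libraries reached an FPKM of 0.5, other scalings, filters, thinning, a replicate block, and each library left out. Counting intervals are exact binomial 95% intervals and cover counting error only.

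The genes named are the members, the called genes of the lists, those needed for their counts, and the 5 nearest to Fbln2 (log2 CPM with a prior count of 2). The members and lists were chosen with earlier results of these data known. Promoter sequences are RefSeq's, and exon overlaps come from GENCODE annotation of GRCm38. Ratios to Col1a2 counts were computed but are not reported, since Col1a2 itself was called lower.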

Additional observations from a re-analysis of the deposited data

How the results depend on the processing

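Fbln2 was called lower under DESeq2 (log2 fold change -5.04), DESeq2's size factors, library totals, no filter, thinning, the replicate block (-5.03), no fold limit and each library left out (-5.77 to -4.55). With at least 10 counts in every library Fbln2 was not tested, since Haspin-KO replicate 2 had 8 reads, and 0 members were called lower. In limma on FPKM, 0 members were called lower, with 1 past a fold of 2 when p was left unadjusted. There Fbln2 had a log2 fold change of -4.32 (adjusted p = 0.094) with a pseudocount of 0.1, -2.32 (0.082) with a pseudocount of 1, and -4.32 (0.26) with no filter. The cause was not tested. The signs that turned were those of Fbln1 (0.029, range with a library left out -0.35 to 0.029) and Fbln5 (0.14, range -0.87 to 0.14) without WT replicate 1, of Fbln5 without Haspin-KO replicate 2 (0.059) and of Fbn1 (0.020, range -0.24 to 0.020) without Haspin-KO replicate 1.

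Over all genes, 78 were called lower and 51 higher. The lower count was 44 with DESeq2, 140 with no filter, 36 with at least 10 counts in every library, 0 with limma in each of its 3 settings, 236 with no fold limit, and 37 to 150 with a library left out. The higher count was 125 with no filter, 0 with limma, 154 with no fold limit, and 17 to 157 with a library left out. Of the other elastic fibre genes, 6 of 36 tested were called lower in the edgeR fit above, and 0 with limma. With at least 10 counts in every library 31 were tested and 3 were called lower (Bgn, Ltbp2 and Ltbp3). Lox, Loxl1, Loxl2 and Tgfb3 had too few Haspin-KO reads to be tested there. The higher count of 1 among the other elastic fibre genes became 0 with limma and 2 with no fold limit. Of the fibroblast markers, 6 of 10 tested were called lower in the edgeR fit above, and 0 with limma. With at least 10 counts in every library 5 were tested and 1 (Col1a1) was called lower. Col1a2, Col3a1, Col6a3, Postn and Prrx1 had too few Haspin-KO reads to be tested there. Of the stem cell, primitive endoderm and germ layer markers, 1 (Fgf5) was called higher with no filter and 1 with the replicate block, against 0.

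The labels number the libraries 1 and 2 in both groups, without naming a shared batch. The differences between replicates 1 and 2 in WT and in Haspin-KO cells had a correlation of r = 0.29 across 15580 genes, which are not independent. With the replicate block, 167 genes were called lower and 240 higher, against 78 and 51 without it, and Fbln2 was the only member called. The adjusted p of Fbln2 went from 9.5e-05 to 4.0e-144 (edgeR). Efemp2, Emilin1 and Mfap5 had adjusted p values of 0.018, 0.048 and 0.0016 with the block, with folds under 2. Without the block these were 0.19, 0.21 and 0.080 (edgeR). With 4 libraries the block leaves little residual spread to estimate, so its p values were not used as evidence of a fall. Levels under about 10 reads per library, as for Eln and Mfap2, limit what this depth can show.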
